A study of Homo sapiens with 12 samples.

Results

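HCC827 is an established human lung adenocarcinoma line that carries an activating in-frame deletion in the kinase domain of the epidermal growth factor receptor gene EGFR. The comparison described here is HCC827 kept for 8 days in erlotinib at 2 micromolar, a drug that blocks the EGFR kinase, against HCC827 kept for 8 days in its solvent, DMSO. Its members are the 6 arrays labelled HCC827, 3 per treatment, of the 12 arrays in the series. The other 6 arrays hold PC9, a second lung adenocarcinoma line with an activating EGFR deletion, under the same 2 treatments; they share the fit and the filter on low signals, and their own values appear only where the lines are compared. All 4 groups were grown in RPMI medium with 10% fetal bovine serum, and drug or DMSO was renewed with fresh medium after 4 days. The erlotinib cultures were started from more cells than the DMSO cultures, and in flasks rather than dishes, so the effects of plated cell number and vessel cannot be told apart from that of the drug. The series description gives flasks for all cells, which leaves the vessels uncertain. Whether replicate arrays hold RNA of independently grown cultures is not stated in the labels. The p-values then measure only the spread between these samples, which may be technical.

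EGFR signals through the RAS, RAF, MEK and ERK kinases and through PI3 kinase and AKT. ERK drives entry into the cell cycle and also switches on its own inhibitors, the DUSP phosphatases and the Sprouty proteins, and AKT holds the FOXO transcription factors out of the nucleus. In lung cancer cells that depend on a mutant EGFR, inhibitors of the kinase stop proliferation and kill most cells, and a drug-tolerant minority can survive for days to weeks in a slowly cycling state. The RNA of an 8-day culture is that of the cells still present, and in such bulk samples fewer cells of a type and less RNA per cell cannot be told apart.

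Messenger RNA was measured as MAS5 signal, a brightness per probe set after background subtraction, and no detection calls were used here. A gene was represented by its brightest probe set, and 13165 of 19775 genes with a probe set of 1 symbol reached the median signal of the table (13) in at least 1 group and were tested. Changes are differences of log2(signal + 8), erlotinib minus DMSO, and are given with the standard error of the limma fit. The added 8 understates the change of genes with low signals. The HCC827 arrays had median signals from 12.2 to 14.2 and correlated within a group with r of 0.9956 or more. The number of arrays limits the precision of every value. The ratio of 3' to 5' signal, which rises when RNA is degraded or copied only in part, was for actin 2.21, 2.10 and 2.19 on the DMSO arrays and 2.45, 2.99 and 3.64 on the erlotinib arrays, and that of GAPDH was 1.17, 1.19 and 1.15 against 1.26, 1.30 and 1.54. The ratios of the groups did not overlap for either gene (two-sided exact permutation p = 0.1 each, the smallest that 3 against 3 arrays can give), and erlotinib arrays 2 and 3 had the highest values.

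After 8 days of erlotinib 6818 of 13165 genes had changed in HCC827 at a Benjamini-Hochberg adjusted p under 0.05 in limma (51.8%). Of these 4247 were higher (32.3% of the genes tested) and 2571 were lower (19.5%). At least 2-fold changes were fewer, with 760 genes higher and 193 lower, and at least 8-fold changes comprised 27 rises and 4 falls. The median change of all genes tested was 0.07 and the median standard error 0.10 on the log2 scale. Higher genes made up 62.3% of the calls on the deposited scale. After median centring of the arrays the calls split into 3242 higher and 3195 lower, or 50.4% higher. Where a gene list is described below, its counts in the full fit are to be read against the shares of 32.3% higher and 19.5% lower. Counts with a 3'/5' ratio as a covariate are to be read against the fewer calls of that fit over all 13165 genes. These were 2558 higher and 1594 lower with the actin ratio, and 2525 and 1441 with the GAPDH ratio.

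The markers of the cultured cell type were present on all 6 arrays. EPCAM, the epithelial adhesion molecule, had signals of 2565, 2615 and 2716 in DMSO and 2296, 2515 and 2549.8 in erlotinib. Of 9 lung epithelial markers, all above a signal of 13 on every array, 7 did not pass the test and 2 fell, the keratin KRT8 by 0.25 ± 0.07, a call lost with the actin ratio as a covariate (limma adjusted p = 0.281), and the aspartic protease NAPSA by 1.94 ± 0.13. Summed over the 9 markers the signal was 16529 to 16620 in DMSO and 15314 to 16490 in erlotinib. The 9 leukocyte markers with a probe set summed to 37.5 to 42.9 in DMSO and 42.4 to 55.4 in erlotinib, and 8 of them, PTPRC and CD3E included, stayed below a signal of 13 on all 6 arrays. The 8 endothelial markers were all below 13, with sums of 19.4 to 22.2 and 20.1 to 30.9. Of 9 fibroblast markers, 7 were below 13 on all arrays, among them PDGFRA, PDGFRB, THY1, FAP and DCN. The fibroblast sum was 168.6 to 191 in DMSO and 639 to 702 in erlotinib. The collagen COL1A1 (1.56 ± 0.10) and the matrix proteoglycan LUM (3.77 ± 0.14) held nearly all of it, and no other marker exceeded 11.6 on any array.

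The largest rises joined secreted signals, matrix, cytoskeletal and metabolic genes. ACKR3, an atypical chemokine receptor that takes up the chemokine CXCL12, had signals of 3.5, 2.3 and 0.9 in DMSO and 379.7, 339.6 and 329 in erlotinib. The DMSO signals were near background and all 3 erlotinib arrays lay above them, a log2 change of 5.13 ± 0.10 (limma adjusted p = 2.01e-15). With the mean of all its probe sets, those under the filter included, the change was 2.04. FILIP1L, a filamin-binding protein, had signals of 20.4, 22.2 and 25.2 in DMSO and 522, 546 and 548 in erlotinib and rose by 4.16 ± 0.08. EDN2, a vasoconstrictor endothelin, had signals of 16.8, 19.7 and 17.7 in DMSO and 403, 454 and 418 in erlotinib and rose by 4.05 ± 0.12. NPPB, the precursor of B-type natriuretic peptide, rose by 4.01 ± 0.20, with means of 3.83 ± 2.48 in DMSO and 181 ± 31.5 in erlotinib (SD, n = 3). MAP2, a microtubule-associated protein best known from neurons, had signals of 14.8, 19.2 and 20.8 in DMSO and 387, 429 and 396 in erlotinib and rose by 3.98 ± 0.11. LUM had signals of 4.8, 5.8 and 7.4 in DMSO and 199, 164 and 185 in erlotinib. The groups of these genes were separated by gaps far wider than the spread within either group.

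Further down this order came PLAC8 (3.61 ± 0.09), the tubulin TUBB2B (3.58 ± 0.12), the kinase CDK15 (3.46 ± 0.15), CPS1, the first enzyme of the urea cycle (3.42 ± 0.08), and ANKRD1, a mechanosensitive transcriptional cofactor (3.36 ± 0.25). CYP1A1, a monooxygenase under control of the aryl hydrocarbon receptor, had signals of 18.3, 16.3 and 15.4 in DMSO and 291, 316 and 330 in erlotinib and rose by 3.70 ± 0.11. The chemokines CCL2 and CXCL10 and the cytokine IL32 belong to the same 15 and are described with the inflammatory genes. Each of the 15 had a limma adjusted p of 1.61e-08 or lower. Of the 760 genes that rose at least 2-fold, 218 had a mean DMSO signal below 13, so the size of their rise depends on the constant added to the signal. With 32 in place of 8 the rise was 2.56 for NPPB, 2.5 for LUM and 2.15 for CDK15. With the mean of all probe sets it was 2.11 for LUM and 1.65 for CDK15.

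**Figure D1:**
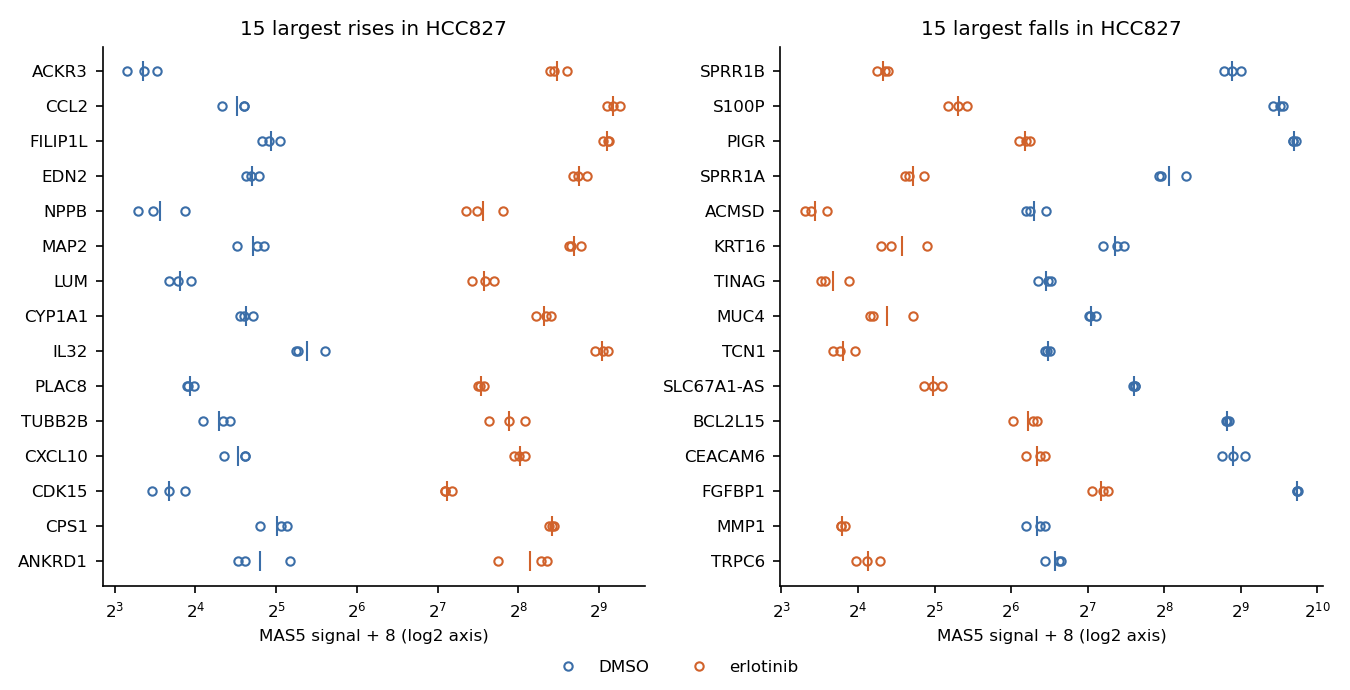
Signal plus 8 on a log2 axis for the 15 genes with the largest rises (left) and the 15 with the largest falls (right) in HCC827, 1 circle per array and a vertical tick at the mean of the 3 arrays of DMSO (blue) or erlotinib (orange). For each of the 30 genes the 3 erlotinib arrays lie apart from the 3 DMSO arrays; the widest gap is that of ACKR3, at 5.13 ± 0.10 on the log2 scale.

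Several of the largest falls were of genes known from differentiated and secretory epithelium. SPRR1B, a crosslinked precursor of the cornified envelope, had signals of 504, 429.7 and 464 in DMSO and 12.4, 13 and 11 in erlotinib. It fell by 4.56 ± 0.10 on the log2 scale, the largest fall among all genes tested (limma adjusted p = 1.01e-14). S100P, a calcium-binding protein of secretory and tumour epithelium, had signals of 739, 718 and 678 in DMSO and 28.3, 35 and 31.4 in erlotinib and fell by 4.19 ± 0.08. PIGR, the receptor that carries polymeric immunoglobulins across epithelium, had signals of 837, 813 and 812 in DMSO and 60.5, 67.9 and 65.2 in erlotinib and fell by 3.52 ± 0.10. All 3 erlotinib arrays of these genes lay below all 3 DMSO arrays. SPRR1A fell by 3.34 ± 0.12; it is close in sequence to SPRR1B and is measured by a probe set of the kind that can bind related transcripts, so how far the 2 values are separate is uncertain.

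Among the other large falls were ACMSD, an enzyme of the kynurenine pathway (fell by 2.86 ± 0.14), the keratin KRT16 (fell by 2.80 ± 0.16), the basement membrane antigen TINAG (fell by 2.79 ± 0.13) and the membrane mucin MUC4 (fell by 2.69 ± 0.13). The vitamin B12 carrier TCN1 fell by 2.67 ± 0.12, the BCL2-family gene BCL2L15 fell by 2.61 ± 0.14, the adhesion molecule CEACAM6 fell by 2.56 ± 0.10 and the growth factor carrier FGFBP1 fell by 2.56 ± 0.08. SLC67A1-AS, named as an antisense transcript, fell by 2.63 ± 0.14, the collagenase MMP1 fell by 2.54 ± 0.13 and the cation channel TRPC6 fell by 2.44 ± 0.13. These 15 falls had limma adjusted p of 4.70e-10 or lower. With the mean of all probe sets the fall was smaller for PIGR (-1.98), SPRR1A (-2.12), TINAG (-1.59) and MUC4 (-0.95). With 32 in place of 8 it was -1.56 for ACMSD, -1.60 for TINAG, -1.57 for TCN1, -1.47 for MMP1 and -1.52 for TRPC6.

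The plot of the gene lists shows the remaining results by function. Each list was described by its counts and its median, with no test of the list as a whole.

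**Figure D2:**
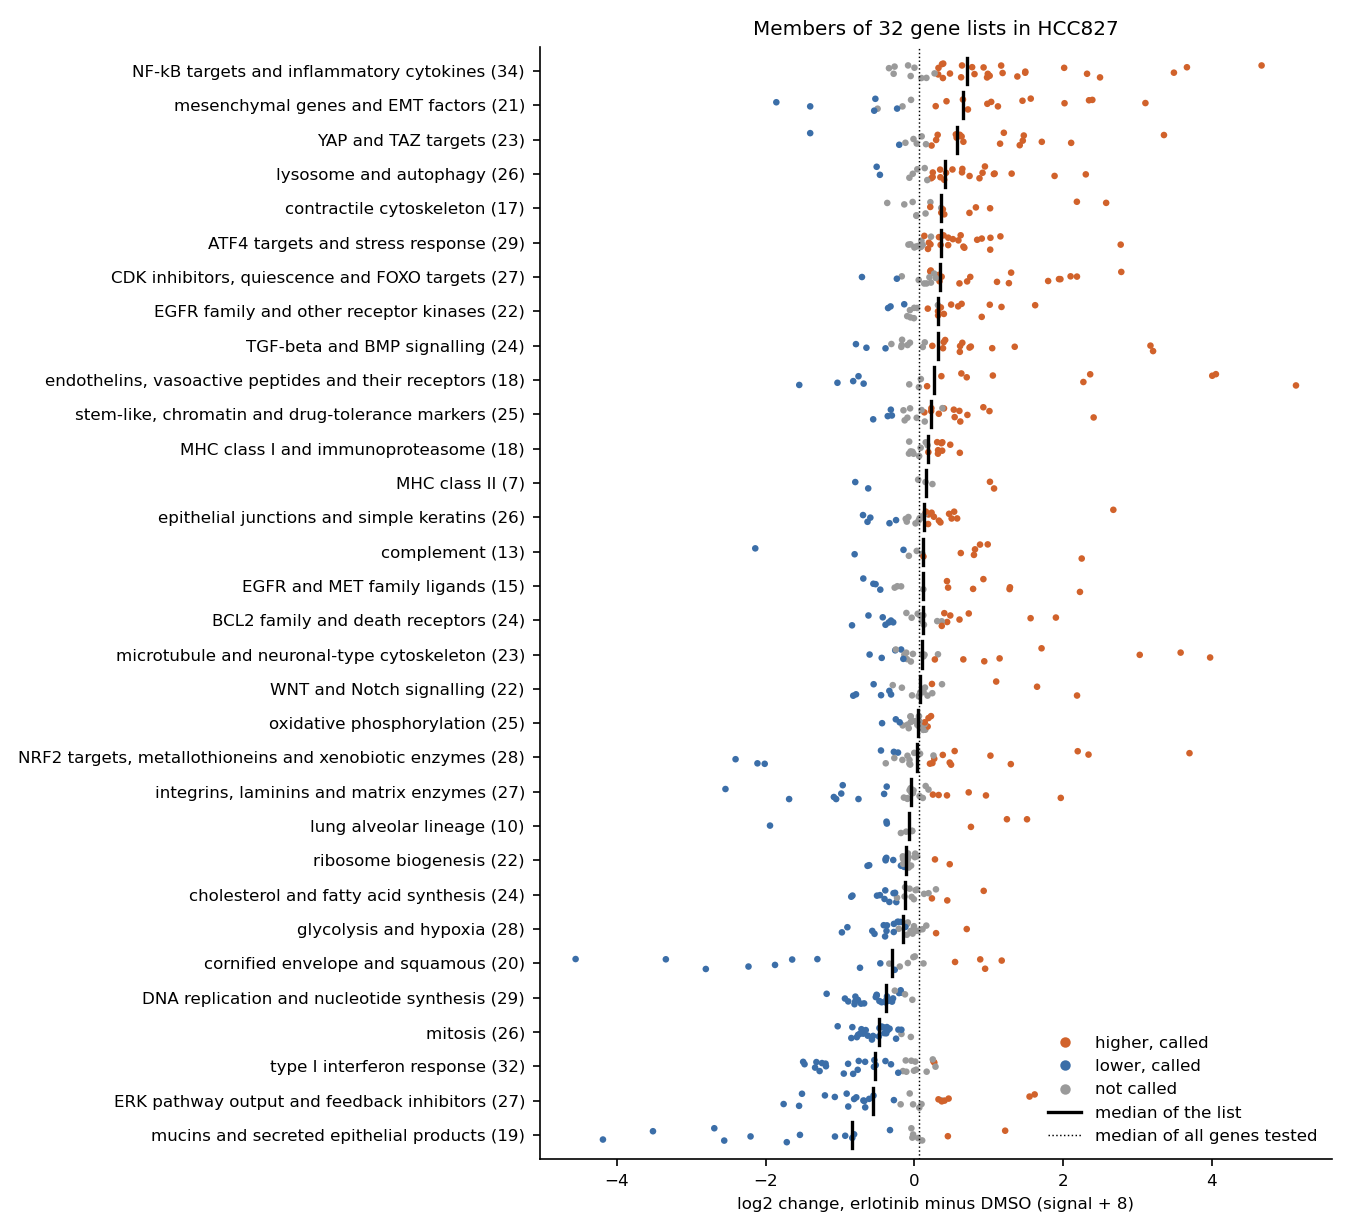
Log2 change in HCC827, erlotinib minus DMSO, of each tested member of 32 gene lists (number tested in parentheses), with called rises in orange, called falls in blue and members that did not pass in grey. Black bars are list medians and the dotted line is the median of all genes tested (0.07); the medians run from -0.83 for mucins and secreted epithelial products to 0.71 for NF-kB targets and inflammatory cytokines.

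Most outputs of ERK were lower. Of 27 tested genes of ERK output and feedback, 15 fell, 6 rose and 6 did not pass, with a median change of -0.55. DUSP6, the phosphatase that removes ERK's activating phosphates, had signals of 1219.5, 1205 and 1330 in DMSO and 335, 414 and 348 in erlotinib and fell by 1.76 ± 0.12 (limma adjusted p = 7.30e-09). ETV1, an ETS transcription factor, fell by 1.55 ± 0.13, or -0.83 as the change averaged over its probe sets. CCND1, the D-type cyclin that starts the cell cycle, had signals of 1462, 1505 and 1522 in DMSO and 983, 908 and 939 in erlotinib and fell by 0.66 ± 0.06. SPRY4, a Sprouty inhibitor named here after its value was seen, fell by 1.51 ± 0.11 from a mean of 75.8 to 21.4. Of the members that rose, the AP-1 subunit FOS rose by 1.62 ± 0.20 and the ephrin receptor EPHA4 rose by 1.55 ± 0.10, the latter 0.94 with the mean of its probe sets and 1.02 with 32 added.

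EGFR itself had signals of 2329.9, 2282 and 2200.3 in DMSO and 2118, 2381 and 2309 in erlotinib on its brightest probe set, which overlapped and did not pass the test (-0.00 ± 0.05). The mean over all EGFR probe sets, several of them far dimmer, did pass, at -0.38 (limma adjusted p = 8.80e-04). Among 22 receptor kinases and their adaptors 12 rose and 3 fell (median 0.32), and 9 rose with the actin and 8 with the GAPDH covariate. The insulin receptor INSR rose by 1.62 ± 0.06, with signals of 241, 250.5 and 249.7 in DMSO and 779.5, 786 and 769.7 in erlotinib. IGF1R, the receptor of insulin-like growth factors, rose by 1.01 ± 0.09, the fibroblast growth factor receptor FGFR3 rose by 1.17 ± 0.10 and ERBB2, the dimerisation partner of EGFR, rose by 0.91 ± 0.10. For the latter 3 the mean of all probe sets gave smaller changes of 0.37, 0.55 and 0.44. AXL, a receptor kinase known from resistance to EGFR inhibitors, had signals of 255, 219.9 and 207 in DMSO and 359, 362 and 348 in erlotinib and rose by 0.64 ± 0.07. ERBB3 rose by 0.40 ± 0.07, a call that was lost with the mean of its probe sets (0.13, limma adjusted p = 0.133). MET, the receptor of hepatocyte growth factor, was close to level at -0.14 ± 0.04, a call lost with the actin ratio as a covariate (limma adjusted p = 0.0932) and without erlotinib arrays 2 and 3 (0.0673). Its 3 other, dimmer probe sets were called lower, and the mean of all was -1.03 (limma adjusted p = 1.19e-06). The insulin receptor substrate IRS1 fell by 0.35 ± 0.09, or -0.61 with the mean of its probe sets and -0.56 with the actin ratio as a covariate.

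Of 15 ligands of these receptors 7 rose and 4 fell. HBEGF, an EGFR ligand shed from the membrane, had signals of 151, 159.6 and 159 in DMSO and 732, 830.2 and 728 in erlotinib and rose by 2.23 ± 0.09. GAS6, the ligand of AXL, rose by 1.29 ± 0.14, with means of 26.9 ± 1.55 in DMSO and 77.3 ± 7.52 in erlotinib (SD, n = 3). The fibroblast growth factor FGF5 rose by 1.28 ± 0.20. With the mean of all probe sets HBEGF rose by 1.28 and FGF5 by 0.62. In the ligand list the calls lower went from 4 to 1 with the actin ratio as a covariate, and in the receptor list from 3 to 1.

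Cell cycle genes were lower. None of 26 tested mitosis genes rose, 24 fell and 2 did not pass in limma, with a median of -0.47; without erlotinib arrays 2 and 3 22 fell, with the actin covariate 20, and no mitosis gene rose in either. MKI67, the usual marker of cycling cells, had signals of 563, 591 and 579.6 in DMSO and 315, 340 and 307 in erlotinib and fell by 0.83 ± 0.09 (limma adjusted p = 1.19e-06). The erlotinib signals of MKI67 were all below those of DMSO but well above background. PLK1, a mitotic kinase, fell by 1.03 ± 0.09, the kinesin KIF23 fell by 0.85 ± 0.14 and CDK1, the kinase that drives mitosis, fell by 0.77 ± 0.07.

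Of 29 DNA replication and nucleotide synthesis genes 26 fell and none rose (median -0.39). CDT1, which loads the replicative helicase onto origins, had signals of 454, 415 and 403 in DMSO and 178, 174 and 195 in erlotinib and fell by 1.18 ± 0.15. POLE2, a subunit of the leading-strand polymerase, fell by 0.93 ± 0.08, CDC45 of the helicase fell by 0.89 ± 0.09 and the loader CDC6 fell by 0.80 ± 0.08. Replication genes are classical targets of E2F factors, and CDT1 is shown here because it fell most in the list and carries an E2F-type element. Promoter windows were taken from RefSeq (GRCh38.p14), 250 bases before to 50 after a gene's start, 1 per symbol. Of 27305 windows 2.31% held TTTCCCGC or TTTGGCGC on either strand, against 14 of 27 windows of tested replication genes (51.9%) and 1 of 21 of tested mitosis genes (4.76%). The 250 bases before the start of CDT1 (chr16:88803539-88803788, plus strand, 5′ to 3′) hold 1 match, in capitals:
CDT1: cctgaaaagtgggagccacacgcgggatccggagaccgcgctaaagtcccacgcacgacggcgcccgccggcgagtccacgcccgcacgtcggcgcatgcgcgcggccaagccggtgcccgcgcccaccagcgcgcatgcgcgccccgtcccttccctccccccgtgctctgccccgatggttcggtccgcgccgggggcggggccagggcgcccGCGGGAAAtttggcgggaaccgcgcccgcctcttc
Directly after the marked match the window holds tttggcgg, which resembles TTTGGCGC without matching it, and only the exact letters were searched. A match of letters is a description of the window and not evidence of binding.

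Genes of cell cycle exit were more often higher than lower. Of 27 CDK inhibitors, quiescence genes and FOXO targets 17 rose, 9 of them at least 2-fold, and 2 fell (median 0.34). With either the actin or the GAPDH ratio as a covariate 12 rose. PIK3IP1, an inhibitor of PI3 kinase, had signals of 0.4, 0.5 and 6.2 in DMSO and 57.9, 59.4 and 66.3 in erlotinib and rose by 2.78 ± 0.17, or 1.35 with the mean of its probe sets and between 1.44 and 4.65 with 32 or 1 added. SESN3, a stress-induced inhibitor of mTOR signalling and a FOXO target, rose by 2.19 ± 0.27, and YPEL3, linked to growth arrest, rose by 2.10 ± 0.11. The CDK inhibitor CDKN1C rose by 1.96 ± 0.18, or 0.72 with the mean of its probe sets. CDKN1B rose by 0.33 ± 0.07, with signals of 1086, 1029 and 1140.5 in DMSO and 1338, 1331 and 1417 in erlotinib, and lost its call with the actin ratio as a covariate (0.16, limma adjusted p = 0.226). The members that fell were the transcription factor KLF4 (-0.70 ± 0.08) and the thioredoxin inhibitor TXNIP (-0.24 ± 0.06, or -0.67 with the mean of its probe sets).

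Of 24 genes of the BCL2 family and death receptors 8 were higher, near the 32.3% of all genes, and 7 were lower, beside 19.5%. With the actin covariate 7 were higher and 3 lower. The pro-death BH3-only gene BMF had signals of 37.6, 34 and 36.3 in DMSO and 148, 146 and 176 in erlotinib and rose by 1.90 ± 0.10, and the pro-death effector BOK rose by 1.56 ± 0.10 (0.77 with the mean of its probe sets). The survival genes BCL2L1 and BCL2A1 fell by 0.62 ± 0.11 and 0.84 ± 0.09. BCL2L11, which encodes the death inducer BIM, rose by 0.44 ± 0.09 on its brightest probe set, with signals of 331, 262 and 260.5 in DMSO and 387, 377 and 396 in erlotinib. Its 7 tested probe sets disagreed, 1 of them called lower, and their mean did not pass (0.03, limma adjusted p = 0.677). MCL1, a short-lived survival protein, did not pass on its brightest probe set (-0.04 ± 0.06), while the mean of its 6 probe sets was lower (-0.40, limma adjusted p = 1.14e-04). Death ligand TNFSF10, known as TRAIL, rose by 0.73 ± 0.15.

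Mucins and other secreted products of epithelium were lower. Of 19 mucins and secreted epithelial products 12 fell, 8 of them at least 2-fold, and 2 rose, with the lowest median of the 32 lists (-0.83). S100P, PIGR, MUC4 and CEACAM6, given above, led them, while WFDC2, a secreted protease-inhibitor-like protein, rose by 1.22 ± 0.14 (0.63 with the mean of its probe sets). Of 20 cornified envelope and squamous genes 10 fell and 4 rose (median -0.30). Besides SPRR1B, SPRR1A and KRT16, the protease inhibitor SERPINB3 fell by 2.23 ± 0.13, with signals of 45.7, 45.8 and 42.7 in DMSO and 3.4, 3.3 and 3 in erlotinib. Its fall was -1.12 with 32 added and -3.43 with 1 added. Within the same list the keratin KRT4 rose by 1.17 ± 0.17 and the kallikrein protease KLK10 rose by 0.95 ± 0.10, or 0.35 with the mean of its probe sets.

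Of 26 genes of epithelial junctions and simple keratins 12 rose and 5 fell, most by small amounts (median 0.12), and with the actin covariate only 4 rose and 3 fell. CLDN1, a tight junction claudin, stood apart, with signals of 129, 114 and 125 in DMSO and 884, 746 and 857 in erlotinib and a rise of 2.68 ± 0.08. CDH1, which encodes E-cadherin, had signals of 2569, 2736 and 2656 in DMSO and 2526, 2687 and 2839 in erlotinib and did not pass on its brightest probe set (0.02 ± 0.06). A second, dimmer CDH1 probe set was lower (means of 107 in DMSO and 50.03 in erlotinib, log2 change -1.03), and the mean of both was called lower (-0.51). The epithelial ETS factor EHF fell by 0.59 ± 0.07. In the alveolar lineage 3 of 10 tested genes rose and 3 fell. NAPSA, which processes surfactant protein B, had signals of 253, 234 and 269.9 in DMSO and 58, 61.6 and 59.6 in erlotinib, while HOPX, a homeodomain protein of alveolar type I cells, rose by 1.51 ± 0.12, ABCA3, the surfactant lipid transporter, rose by 1.24 ± 0.17 and LAMP3, a lamellar body protein, rose by 0.76 ± 0.11. With 32 added HOPX rose by 0.84 and ABCA3 by 0.82.

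Mesenchymal genes rose in larger number, though not all of them. Of 21 tested, 13 rose, 8 at least 2-fold, and 5 fell (median 0.65). SPARC, a matricellular collagen-binding protein, had signals of 32.5, 35.9 and 35.1 in DMSO and 352, 375 and 348 in erlotinib and rose by 3.11 ± 0.53; its standard error comes from the common fit of both lines, and within each treatment the HCC827 arrays lay close together. FBN1, which builds microfibrils, rose by 2.39 ± 0.11, the transcription factor ZEB2 rose by 2.35 ± 0.16 and CDH2, which encodes N-cadherin, rose by 2.02 ± 0.35. VIM, the intermediate filament vimentin, rose by 0.98 ± 0.27, with signals of 473, 510.2 and 452 in DMSO and 913, 991 and 950.3 in erlotinib. Its call was lost with the GAPDH ratio as a covariate (1.00 ± 0.44, limma adjusted p = 0.101) and without erlotinib arrays 2 and 3 (0.92 ± 0.42). The standard error of VIM, from the common fit of both lines, grew in these fits, while its rise moved little. Against this direction the matrix glycoprotein TNC fell by 1.86 ± 0.07 and the ectonucleotidase NT5E fell by 1.40 ± 0.05. With the mean of all probe sets SPARC rose by 2.01 and FBN1 by 1.30; with 32 added FBN1 rose by 1.44 and ZEB2 by 1.37.

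Contractile and YAP-responsive genes were more often higher than lower. Of 17 contractile cytoskeleton genes 9 rose and none fell (median 0.36). With the actin covariate 6 rose, beside 2558 of all 13165 genes in that fit. When probe sets were averaged 5 of 14 rose (median 0.13), beside 3621 of all 12602. Of this list 2 were called lower after median centring, and 1 was with the actin covariate and in the fit of the 6 HCC827 arrays alone. TAGLN, an actin-binding protein of smooth muscle, had signals of 34.9, 27.1 and 27.8 in DMSO and 213, 224 and 216 in erlotinib and rose by 2.58 ± 0.12, and the myosin light chain MYL9 rose by 2.18 ± 0.19. The mean of all probe sets gave 1.26 for TAGLN and 1.42 for MYL9. Of 23 targets of the mechanosensitive cofactors YAP and TAZ 16 rose and 2 fell (median 0.57). ANKRD1 had signals of 16.4, 15.1 and 28 in DMSO and 319, 206 and 302 in erlotinib. The matrix protein CCDC80 rose by 1.71 ± 0.07 and the secreted FSTL1 rose by 1.47 ± 0.06, the latter 0.61 by the mean of its probe sets. The lists share members: AXL and NT5E are also held by the receptor and mesenchymal lists.

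In TGF-beta and BMP signalling 13 of 24 genes rose and 3 fell (median 0.31), and 11 rose and 1 fell with the actin covariate. INHBA, the subunit of activin A, had signals of 128, 147 and 119.9 in DMSO and 1269.5, 1300.4 and 1269.9 in erlotinib and rose by 3.21 ± 0.07 (limma adjusted p = 1.01e-14). NOG, which encodes the secreted BMP antagonist noggin, had signals of 58.8, 69.8 and 59.9 in DMSO and 621, 594 and 678 in erlotinib and rose by 3.17 ± 0.10. BMP2, a BMP ligand, rose by 1.35 ± 0.12 and ID3, a BMP target that blocks differentiation factors, rose by 1.05 ± 0.09, whereas the decoy receptor BAMBI fell by 0.79 ± 0.08. In WNT and Notch signalling 12 of 22 genes did not pass, 4 rose and 6 fell, and 3 fell with the actin covariate. The WNT receptor FZD7 rose by 2.19 ± 0.07 and the non-canonical ligand WNT5A rose by 1.65 ± 0.11, or 0.88 with 32 added, while the ligand WNT7B fell by 0.82 ± 0.16.

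Among 27 integrins, laminins and matrix enzymes 9 fell and 6 rose, and 3 rose with the actin covariate. Among the members that fell were matrix metalloproteinases, which cut extracellular matrix. MMP1 had signals of 78.9, 74.8 and 64.9 in DMSO and 6.2, 5.7 and 5.7 in erlotinib, and MMP10 fell by 1.68 ± 0.12 (-0.88 with 32 added). MMP7 fell by 1.08 ± 0.20, a call lost with the actin covariate (-0.75, limma adjusted p = 0.0634), and its change was -0.71 with 32 added. Of other metalloproteinases, named after their values were seen, MMP9 fell by 0.98 ± 0.13, MMP13 (-0.09 ± 0.13) and MMP14 (0.07 ± 0.15) did not pass, and outside the list MMP2 rose by 1.21 ± 0.20 and MMP24 rose by 1.12 ± 0.09. The integrin subunit ITGB8, part of a receptor that activates latent TGF-beta, rose by 1.97 ± 0.15, or 0.78 with the mean of its probe sets.

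Inflammatory genes formed the highest list. Of 34 NF-kB targets and inflammatory cytokines 25 rose, 12 at least 2-fold, and none fell (median 0.71); 20 rose with the actin covariate and 22 without erlotinib arrays 2 and 3, while 1 fell with quantile normalization, median centring or the mean of all probe sets. CCL2, a chemokine that draws monocytes, had signals of 12.1, 16.3 and 16.2 in DMSO and 607, 568 and 541 in erlotinib and rose by 4.67 ± 0.21. IL32, a pro-inflammatory cytokine, had signals of 29.9, 30.7 and 40.6 in DMSO and 522, 548 and 486 in erlotinib and rose by 3.66 ± 0.12. CXCL10, a chemokine that draws T cells, had signals of 16.4, 12.4 and 16.5 in DMSO and 264, 249 and 239.6 in erlotinib and rose by 3.49 ± 0.13. TNF, the cytokine that activates NF-kB, had signals of 0.6, 2.9 and 0.3 in DMSO and 44.9, 43.2 and 43.6 in erlotinib and rose by 2.5 ± 0.16, or 1.19 with 32 added and 4.48 with 1 added. IL6, named after its values were seen, had signals of 118, 125 and 134 in DMSO and 632, 701 and 650.1 in erlotinib and rose by 2.32 ± 0.12. In each of these genes the 3 erlotinib arrays lay above the 3 DMSO arrays.

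The type I interferon response moved the other way. Of 32 tested interferon-stimulated genes 20 fell, 8 at least 2-fold, and 2 rose (median -0.53); 15 fell and 0 rose with the actin covariate, and 15 fell and 0 rose without erlotinib arrays 2 and 3. IFI44L, an interferon-induced protein, had signals of 979, 1008 and 1049 in DMSO and 425, 346 and 300.3 in erlotinib and fell by 1.50 ± 0.13 (limma adjusted p = 8.35e-08). OASL, a relative of the antiviral oligoadenylate synthetases, had signals of 144, 151 and 134 in DMSO and 50.7, 49 and 39.8 in erlotinib and fell by 1.48 ± 0.11. The nucleotide kinase CMPK2 fell by 1.33 ± 0.11 and IFI27 fell by 1.32 ± 0.15. The members called higher, the RNA sensor RIGI (0.26 ± 0.08) and IFIT2 (0.27 ± 0.09), both lost the call with median centring and with either control ratio as a covariate. Without erlotinib arrays 2 and 3 their changes were 0.18 and 0.29. With probe sets tested singly, a dimmer RIGI probe set was higher by 0.62 (limma adjusted p = 5.83e-05). A dimmer IFIT2 probe set did not pass (0.24).

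Both responses act through known elements, so promoter windows were read for the core of the interferon-stimulated response element (TTTCNNTTTC) and for an NF-kB site (GGGNNTTTCC) on both strands. The interferon core was present in 3.65% of 27305 RefSeq windows, in 16 of 26 windows of tested interferon genes (61.5%), in 8 of 15 of MHC class I genes (53.3%) and in 1 of 26 of NF-kB list genes (3.85%). The NF-kB letters were present in 1.92% of all windows, in 14 of 26 windows of the NF-kB list (53.8%) and in 3 of 26 of the interferon list (11.5%). The windows of 3 genes are printed, a falling interferon gene, a rising chemokine that both pathways are known to induce, and a rising NF-kB target, as the 250 bases before the start, 5′ to 3′, with matches in capitals (GRCh38.p14; IFI44L chr1:78620198-78620447, plus strand; CXCL10 chr4:76023498-76023747, minus strand; IL32 chr16:3065153-3065402, plus strand):
IFI44L: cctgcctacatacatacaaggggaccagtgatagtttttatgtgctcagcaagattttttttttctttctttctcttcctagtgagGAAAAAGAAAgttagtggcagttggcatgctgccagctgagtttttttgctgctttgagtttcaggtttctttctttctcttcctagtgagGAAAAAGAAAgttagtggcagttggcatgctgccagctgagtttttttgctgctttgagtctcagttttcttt
CXCL10: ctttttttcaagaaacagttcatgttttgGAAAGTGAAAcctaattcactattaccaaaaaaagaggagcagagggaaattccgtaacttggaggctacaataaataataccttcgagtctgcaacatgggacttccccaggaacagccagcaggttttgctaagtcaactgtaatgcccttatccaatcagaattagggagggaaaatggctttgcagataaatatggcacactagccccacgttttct
IL32: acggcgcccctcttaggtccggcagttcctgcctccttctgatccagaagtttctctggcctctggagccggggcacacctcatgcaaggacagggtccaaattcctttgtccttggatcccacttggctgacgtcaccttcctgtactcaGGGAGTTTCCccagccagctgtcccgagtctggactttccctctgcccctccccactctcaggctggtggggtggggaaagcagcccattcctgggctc
The capitals mark 2 interferon cores in IFI44L, 1 interferon core in CXCL10 and 1 NF-kB site in IL32. Only the exact letters given above were searched. The CXCL10 window also holds gggaaattcc and gggacttccc, which resemble the NF-kB letters without matching them. It is therefore not shown to lack an NF-kB site. CXCL10, whose window holds the interferon core, rose, and IFI44L, whose window holds it at 2 places, fell. What these letters contribute was not tested.

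MHC class I genes, which present antigen, rose little: 9 of 18 were higher, none by 2-fold, and none lower (median 0.18); with the actin covariate 5 were higher. HLA-E rose by 0.61 ± 0.06 and HLA-B rose by 0.38 ± 0.06, whose probe set can bind related HLA transcripts. Of 7 class II genes 2 rose and 2 fell. The peptide-loading chaperone genes HLA-DMB and HLA-DMA rose by 1.07 ± 0.13 and 1.02 ± 0.11, the former by 0.60 with 32 added. The invariant chain CD74 fell by 0.79 ± 0.18, -1.24 with the GAPDH covariate and -0.50 with 32 added. Of 13 complement genes 7 rose and 3 fell. The central component C3 had signals of 75.6, 73.1 and 73.6 in DMSO and 8.1, 9.7 and 14.7 in erlotinib and fell by 2.14 ± 0.11 (-1.31 with 32 added), while the chaperone and complement inhibitor CLU rose by 2.25 ± 0.09 (1.31 with the mean of its probe sets) and the inhibitor CD55 rose by 0.99 ± 0.06.

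Metabolic lists moved by small amounts. Of 28 glycolysis and hypoxia genes 14 fell and 2 rose (median -0.15), and 9 fell with the actin covariate. The hypoxia-induced prolyl hydroxylase EGLN3 fell by 0.97 ± 0.08, while the vasodilator peptide gene ADM rose by 0.70 ± 0.12. Of 24 cholesterol and fatty acid synthesis genes 10 fell and 3 rose (median -0.13), and 7 fell and 1 rose with the actin covariate. INSIG1, which retains the sterol sensor in the endoplasmic reticulum, fell by 0.83 ± 0.07 and HMGCS1, an early enzyme of sterol synthesis, fell by 0.50 ± 0.05. Oxidative phosphorylation hardly moved, with 18 of 25 not passing, 4 higher and 3 lower, and 0 higher with the actin covariate. Ribosome biogenesis had 8 of 22 lower and 2 higher (median -0.11), and 5 lower with the actin covariate. UTP20 of the small-subunit processome fell by 0.63 ± 0.10 and the methyltransferase FBL fell by 0.39 ± 0.06.

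Lysosome, autophagy and stress genes were more often higher than lower. Of 26 lysosome and autophagy genes 19 rose and 2 fell (median 0.41), and 14 rose with the GAPDH covariate. GABARAPL1, a coat protein of autophagosomes, had signals of 72.7, 86 and 58.8 in DMSO and 379, 385 and 393 in erlotinib and rose by 2.30 ± 0.14, WIPI1, which acts in autophagosome formation, rose by 1.89 ± 0.11, and ULK1, the kinase that starts autophagy, rose by 1.31 ± 0.16. The protease CTSH rose by 1.08 ± 0.06 whereas CTSL fell by 0.46 ± 0.09, or -0.70 with the GAPDH covariate. Of 29 ATF4 targets and stress genes 20 rose and none fell (median 0.35), though 1 fell with the mean of all probe sets; 15 rose with the actin and 12 with the GAPDH covariate. ATF3, a stress-induced transcription factor, had signals of 86.3, 110.5 and 93 in DMSO and 602, 928 and 625 in erlotinib and rose by 2.77 ± 0.15 (1.84 with the mean of its probe sets). The pro-death factor DDIT3 rose by 1.16 ± 0.10 and the cystine transporter SLC7A11 rose by 1.02 ± 0.06.

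The list of NRF2 targets, metallothioneins and xenobiotic enzymes had 12 of 28 higher and 6 lower, beside 32.3% and 19.5% of all genes. Among those that rose were targets of the aryl hydrocarbon receptor. Besides CYP1A1, its repressor AHRR had signals of 20.9, 21.1 and 20 in DMSO and 150, 127 and 135 in erlotinib and rose by 2.34 ± 0.10, and CYP1B1 rose by 2.20 ± 0.09. Of those that fell, AKR1B10, an aldo-keto reductase known as an NRF2 target, had signals of 244, 228 and 216 in DMSO and 35.9, 39.1 and 35.6 in erlotinib and fell by 2.40 ± 0.07, and the conjugate exporter ABCC2 fell by 2.11 ± 0.13. SLC7A11, also an NRF2 target, rose, as given with the stress genes.

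The list of microtubule and neuronal-type cytoskeletal genes stood near the shares of all genes, with 8 of 23 higher, 5 lower and a median of 0.11, and 1 was lower with the actin covariate. Besides MAP2 and TUBB2B, TUBA1A had signals of 252, 272 and 276 in DMSO and 2112, 2252 and 2347 in erlotinib and rose by 3.03 ± 0.09, and MAP1B, a microtubule stabiliser, rose by 1.71 ± 0.06. Tubulin genes are close in sequence, and the probe sets of TUBA1A and TUBB2B are of the kinds that can bind related transcripts. Of 18 endothelin, natriuretic peptide, prostaglandin and related genes 10 rose and 5 fell. NPR3, which clears natriuretic peptides, rose by 2.36 ± 0.18, or 1.41 with the mean of its probe sets and 1.39 with 32 added. The prostaglandin enzyme PTGS1 fell by 1.55 ± 0.13.

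Of 25 stem-like, chromatin and drug-tolerance markers 13 rose and 4 fell (median 0.23). KDM5B, a demethylase of active histone marks, had signals of 330.3, 304 and 344 in DMSO and 658, 583 and 644 in erlotinib and rose by 0.93 ± 0.07. KDM5A, its relative linked to drug tolerance, changed by 0.23 ± 0.08 and lost its call with median centring (limma adjusted p = 0.137), either covariate and without erlotinib arrays 2 and 3 (0.0696). IGFBP7, a secreted binding protein, rose by 2.41 ± 0.31 (1.38 with 32 added), and KDM6A, a demethylase of repressive marks, rose by 1.01 ± 0.13. IGFBP3 did not pass on its brightest probe set (0.03 ± 0.06), and the mean of its probe sets was lower (-0.15, limma adjusted p = 0.0446). CD24, a surface glycoprotein, rose by 0.23 ± 0.05 and lost its call with median centring (0.15) and with the actin covariate (limma adjusted p = 0.0953). PROM1 did not enter the test.

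The higher 3'/5' ratio of the erlotinib arrays moved together with the treatment, and single changes were compared between the full fit and 2 alternative fits. Neither fit can tell the ratio apart from the drug, as every HCC827 erlotinib array had higher ratios than every DMSO array. Erlotinib array 1, kept in both, had an actin ratio of 2.45 against 2.10 to 2.21 in DMSO, and a GAPDH ratio of 1.26 against 1.15 to 1.19. With the log2 actin ratio of each array as a covariate 4152 genes were called, 2558 higher and 1594 lower. Without erlotinib arrays 2 and 3, where the lone erlotinib array is assumed to vary like the other groups, 4402 were called, 2728 higher and 1674 lower. In both fits 3715 of the 6818 calls were kept with the same sign. Of the 953 genes changed at least 2-fold 936 were kept in both and none changed sign. SPRR1B changed by -4.45 with the covariate and -4.54 without the 2 arrays, ACKR3 by 5.23 and 5.25, DUSP6 by -1.86 and -1.88, and IFI44L by -1.23 and -1.23. The fall of IFI44L was smaller in both fits than in the full one.

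**Figure D3:**
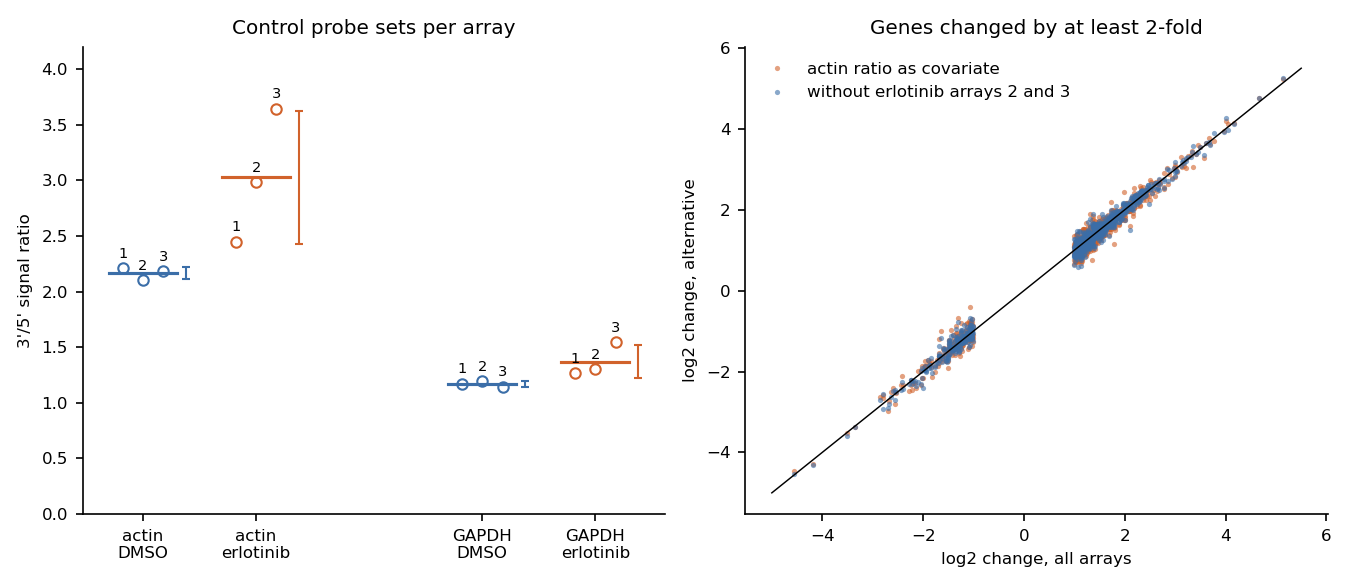
Left, 3'/5' signal ratio of the actin and GAPDH control probe sets on each HCC827 array (circles numbered by replicate, line at the mean, bar for the SD, n = 3), with actin at 2.17 ± 0.0563 in DMSO and 3.03 ± 0.598 in erlotinib. Right, log2 change of the 953 genes changed at least 2-fold in the full fit (horizontal) against that with the actin ratio as a covariate (orange) or without erlotinib arrays 2 and 3 (blue), with a line of equality; no gene lies across 0.

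Probe sets of a gene sit at different distances from the end of the transcript, so they were also compared with each other. Of 6955 genes with several tested probe sets, 855 had all of them called higher, 748 all called lower, and 1847 none called. In 259 genes probe sets were called in both directions, and in none of them at 2-fold or more each way. With the actin ratio as a covariate 42 genes had opposite calls, with 7059 in place of 12521 of 26048 probe sets called. In PC9, where more probe sets were called (15694), the number was 379 of the same 6955 genes. Of the 194 named genes 108 had other tested probe sets; all of these were called in the same direction for 76, some did not pass for 26, and 6 (BCL2L11, CDH1, ERBB3, IGFBP3, NOP16 and ST14) had a probe set called in the opposite direction.

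The HCC827 response was then set against that of PC9 by testing the difference of the changes in the same fit. The 2 lines share no control arrays. The difference passed for 5954 genes: HCC827 was more positive for 3155 (24%) and more negative for 2799 (21.3%). Of the HCC827 calls 4203 were also called in the same direction in PC9, 61.6% of the HCC827 calls and 49.3% of the 8521 PC9 calls, and 710 were called in the opposite direction. Among genes at 2-fold or more 357 rose and 53 fell in both lines, whereas 9 rose in HCC827 and fell in PC9 and 10 did the reverse.

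In PC9 itself 36.4% of all genes tested were called higher and 28.3% lower. The interferon genes differed between the lines in 1 direction. Of 32 members 20 rose in PC9, where the median change was 0.85, and the difference passed for 26, in all of them with HCC827 more negative. IFI44L did not pass in PC9 (0.25) and the difference was -1.74 ± 0.18 (limma adjusted p = 1.26e-06). MHC class I followed, with a PC9 median of 0.95 and 14 of 18 differences called, none with HCC827 more positive. In the NF-kB list both medians were above that of all genes (1.06 in PC9), 8 members were more positive in HCC827 and 17 more negative. Ribosome biogenesis and oxidative phosphorylation fell in PC9 in 19 of 22 and 15 of 25 genes, and all 18 and 12 called differences had HCC827 more positive. In the mitosis list the 9 called differences, and in the replication list 17 of 18, had HCC827 more positive.

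**Figure D4:**
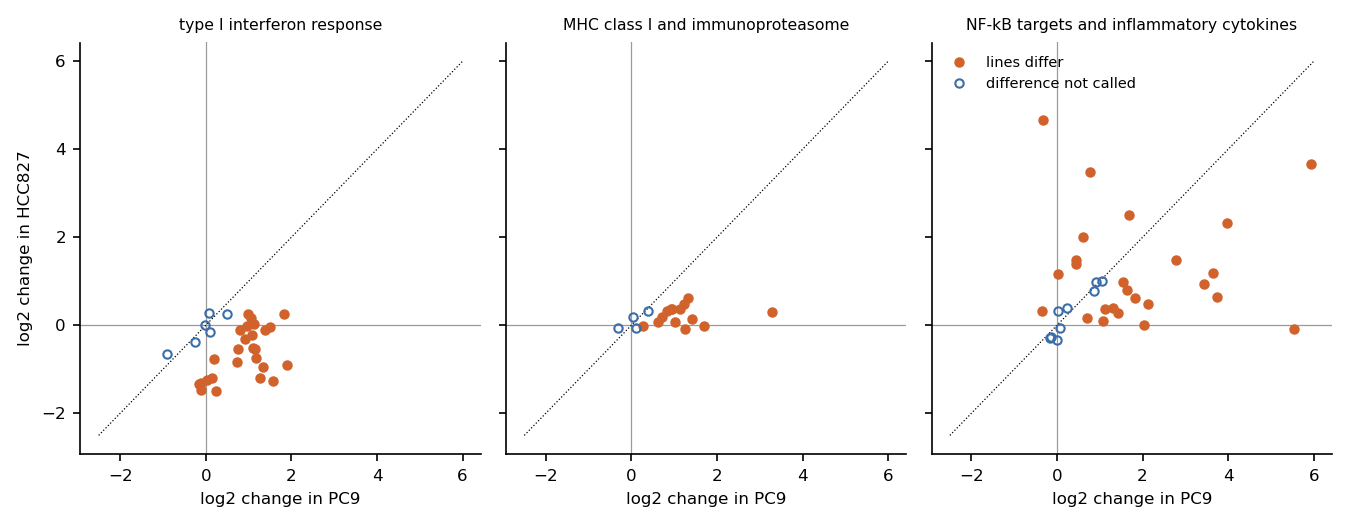
Log2 change in PC9 (horizontal) against HCC827 (vertical), erlotinib minus DMSO, for tested members of 3 lists, with filled orange points where the difference between the lines passed at an adjusted p under 0.05 and a dotted line of equal change. All 26 interferon and all 14 MHC class I genes with a called difference lie below the line, while NF-kB targets lie on both sides.

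Single genes differed by more. NOG rose by 3.17 ± 0.10 in HCC827 and changed by -2.43 in PC9, a difference of 5.61 ± 0.14. CCL2 stood at -0.32 in PC9, a difference of 4.99 ± 0.30. HBEGF changed by -1.62 in PC9 (3.84 ± 0.13), and the collagen COL13A1, the ubiquitin ligase gene SH3RF3 and the protease PAPPA had differences of 4.45 ± 0.20, 4.37 ± 0.27 and 3.83 ± 0.17. On the other side the platelet chemokine PPBP rose by 5.54 in PC9 and was near background in HCC827, a difference of -5.63 ± 0.19. MUC4 rose by 2.60 in PC9 and fell in HCC827 (-5.29 ± 0.18). The oxidised lipoprotein receptor OLR1 differed by -5.28 ± 0.20 and the secreted protein gene CRISP3 by -4.79 ± 0.17. The inducible prostaglandin synthase PTGS2 differed by -4.63 ± 0.18 and RGS7, which shuts off G protein signals, by -4.55 ± 0.20. In HCC827 itself OLR1 (0.90) and PTGS2 (0.36) were called higher and RGS7 (-2.05) lower. The PTGS2 call was lost with median centring (limma adjusted p = 0.0548) and with the actin covariate (0.158). PPBP, OLR1 and CRISP3 had mean signals under 13 in both HCC827 groups, and CCL2 in both PC9 groups. They were tested only through the other line, and the sizes of these 4 differences rest on signal near background and on the constant added. The HCC827 part of some other differences also moved with the settings. SH3RF3 rose by 1.23 in HCC827, or 2.18 with 1 added and 0.53 with 32 added. PAPPA rose by 2.29, or 1.28 with 32 added and 0.65 with the mean of its probe sets. The 12 differences had limma adjusted p of 3.29e-09 or lower. COL13A1 rose by 0.67 ± 0.14 in HCC827, or 0.35 with 32 added, and lost that call with either control ratio as a covariate (limma adjusted p = 0.132 with actin).

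**Figure D5:**
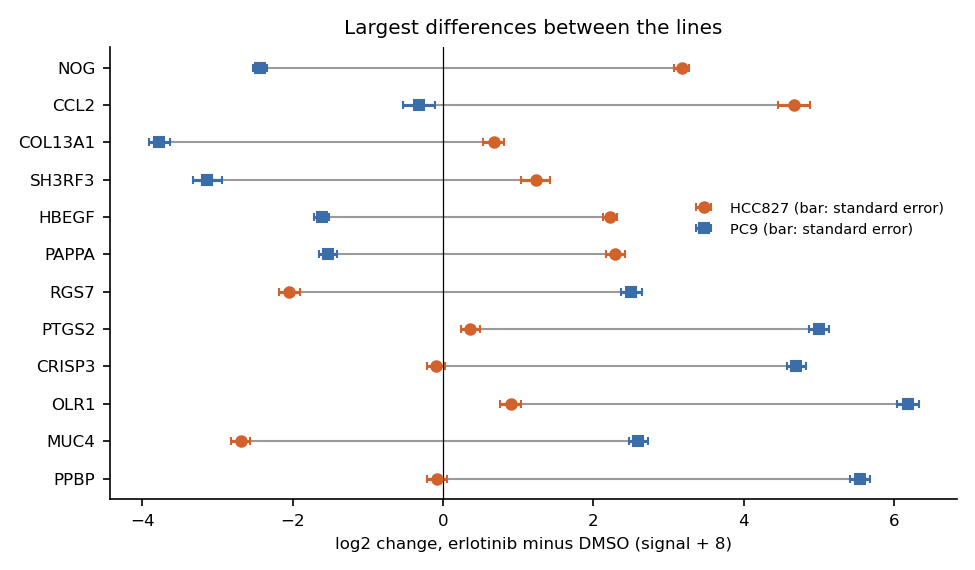
Log2 change, erlotinib minus DMSO, in HCC827 (orange circles) and PC9 (blue squares) with standard errors from the common fit, for the 6 largest called differences between the lines in each direction. NOG, at the top, rose in HCC827 and fell in PC9; PPBP, at the bottom, was near background in HCC827 in both treatments and rose by 5.54 in PC9.

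Some of the genes changed at least 2-fold are neighbours. In RefSeq order, counting only tested genes, the longest runs on chromosome 1 and 19 each held 5 genes called higher by at least 2-fold: the glutathione transferases GSTM4, GSTM2, GSTM1 and GSTM3 with CSF1, and the pregnancy-specific glycoproteins PSG3, PSG1, PSG6, PSG7 and PSG5. A run of 4 higher genes on chromosome 20 held EDEM2, PROCR, MMP24 and MMP24OS. On chromosome 1 the cornified envelope genes SPRR1A, SPRR3 and SPRR1B fell together with S100A9. MMP7, MMP10 and MMP1, all lower, are neighbours on chromosome 11. The genes of these runs were found by their values and are given as a description. GSTM and PSG genes are related copies, close in sequence to differing degrees, and signal of a copy can be counted for its neighbour.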

How the data were processed

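RNA of 12 samples was hybridised to 1-colour Affymetrix arrays, 1 array per sample. The deposited values are MAS5 signal intensities on a linear scale, made by the authors with MAS5 per the submitters' processing notes; its version and settings are not given in the sources used here. The 2% trimmed mean was 150 on each array. Of 54675 probe sets 62 are controls, 41091 carry 1 gene symbol in the platform annotation, 1801 several and 11721 none; 41037 of those with 1 symbol matched RefSeq by gene ID, and no symbol needed updating. Groups were taken from the sample titles.

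From these intensities log2(signal + 8) was computed without further normalization. The probe set with the highest mean stood for a gene, and a gene was kept when a group mean reached the table's median signal of 13, which left out 6610 genes. The 4 groups were fitted together in limma 3.58.1 (R 4.3.3) with an intensity trend, and p-values were adjusted over all genes tested by the Benjamini-Hochberg method. On simulated data of 13165 genes, 200 of them changed, the fit recovered 61% of log2 changes of 0.5 and 98% of those of 1. It made 14 false calls among the unchanged genes. The noise was drawn independently for each gene, and far fewer genes were changed than the 6818 called in the data. These rates therefore do not carry over to the data. Alternatives covered the added constant, scaling, filter, probe set rule, trend, arrays fitted, replicate block, control ratios and leaving out arrays.

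The text names the 15 largest rises and falls among called genes whose groups do not overlap and whose higher group has a mean signal of at least 50, up to 4 called members of each of 32 lists (with up to 2 of the less frequent direction), 18 fixed genes, and the 6 largest differences between the lines each way; a selection of these is given. The members and lists were chosen with earlier results of these data known. Promoter windows come from RefSeq (GRCh38.p14).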

Additional observations from a re-analysis of the deposited data

Results flagged for a closer look

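The response to erlotinib differed between the cell lines in the test of the difference itself, HCC827 change minus PC9 change, for 3155 genes with HCC827 more positive and 2799 with HCC827 more negative. The lines were the groups compared, and the 6 largest called differences each way stood out by size. With HCC827 more positive these were NOG at 5.61 ± 0.14, CCL2 at 4.99 ± 0.30, COL13A1 at 4.45 ± 0.20, SH3RF3 at 4.37 ± 0.27, HBEGF at 3.84 ± 0.13 and PAPPA at 3.83 ± 0.17. With HCC827 more negative they were PPBP at -5.63 ± 0.19, MUC4 at -5.29 ± 0.18, OLR1 at -5.28 ± 0.20, CRISP3 at -4.79 ± 0.17, PTGS2 at -4.63 ± 0.18 and RGS7 at -4.55 ± 0.20. PPBP, OLR1 and CRISP3 lay under a mean signal of 13 in both HCC827 groups and CCL2 in both PC9 groups, so the sizes of these 4 rest on signal near background. The HCC827 changes of SH3RF3, PAPPA and COL13A1 also moved with the added constant. All values are on the log2 scale with the standard error of the common limma fit.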

How the results depend on the processing

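Of 194 named genes 188 were called, and 115 of the 194 kept their direction and side of the threshold under every setting that gave them a value; the stricter filter gave one for 161 of the 188 and the mean of all probe sets for 179. The count of 6818 fell to 4152 (2558 higher, 1594 lower) with the actin ratio as a covariate, 3966 (2525, 1441) with the GAPDH ratio, 4402 (2728, 1674) without erlotinib arrays 2 and 3, and 1076 (837, 239) in a test against a 1.5-fold change, in which 75 of the 188 lost their call. With each probe set tested singly 12521 were called (6826 higher, 5695 lower, 419 lower by at least 2-fold). Changes of 2-fold or more numbered 378 rises and 113 falls with 32 in place of 8 and 1078 and 269 with 1, and the mean of all probe sets left 475 such rises. Leaving out 1 array at a time gave 5958 to 6462 calls (3733 to 4109 higher, 2198 to 2353 lower), and 2-fold changes numbered 750 to 769 upward and 194 to 202 downward. The sign turned for COX4I1 without erlotinib arrays 2 and 3 (-0.051), and with the mean of all probe sets for POLR1A (-0.0044), NOP16 (-0.00061), CDH1 (-0.51) and IGFBP3 (-0.15); the cause was not tested. EGFR, CDH1 and IGFBP3, which were not called, also crossed 0 under other settings without passing. The mean of all probe sets moved 58 of 179 named changes by more than 1.5 times, and 32 in place of 8 moved 36 of 188.

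The labels number the replicates of both groups, but the deviations of same-numbered arrays correlated at 0.0107, 0.132 and 0.0125, so the numbers were not taken to pair the samples. With the replicate block 6661 genes were called (4150 higher, 2511 lower), and no call of a named gene changed.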

Other observations

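Several gene families moved together; they were chosen after their values were seen and are given as a description. All 4 tested YPEL genes, linked to growth arrest and development, rose in HCC827, YPEL2 by 2.39, YPEL3 by 2.10, YPEL1 by 1.50 and YPEL5 by 1.02. Of 5 DLX homeobox genes 4 rose, DLX2 most at 2.26, and of 6 tested beta protocadherins, cell adhesion proteins best known from neurons, 5 rose, PCDHB2 most at 1.51. Of 6 type IV collagens of basement membrane, COL4A1, COL4A2, COL4A3 and COL4A4 rose by 1.30, 1.06, 1.32 and 2.18, COL4A5 did not pass (0.13) and COL4A6 fell by 1.49. All 7 tested pregnancy-specific glycoproteins rose (PSG5 by 3.33, PSG4 by 0.51), and so did all 4 mu-class glutathione transferases, but these copies are close in sequence and their single values are uncertain. These counts of members higher and lower were the same with quantile normalization, median centring and without erlotinib arrays 2 and 3. With the actin covariate they were the same except that 6 of the 7 pregnancy-specific glycoproteins rose.

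Other families moved little, and some of their counts rest on the scaling. Of 75 mitochondrial ribosomal protein genes 27 fell, beside 19.5% of all genes, and 4 rose, beside 32.3% (median -0.11). With median centring 32 fell and none rose, and with the actin covariate 13 fell and 1 rose. Of 56 cytosolic ribosomal protein genes 20 rose, near the 32.3% of all genes, and 1 fell, beside 19.5% (median 0.12). With median centring 4 rose and 2 fell, and with the actin covariate 5 rose. Without erlotinib arrays 2 and 3 the median of this family was 0.04. Over all 13165 genes the calls were 3242 higher and 3195 lower with median centring, and 2558 and 1594 with the actin covariate. Of 27 clustered histone genes 11 were higher and 6 lower, beside 32.3% and 19.5% of all genes, led by H2AC25 (2.43) and H3C3 (-1.45). With median centring 9 were higher and 8 lower, and with the actin covariate 10 higher and 1 lower.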
